A study of Mus musculus with 14 samples.

Results

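The histone genes of mouse haematopoietic stem cells (HSCs) were examined in the single cells of knockout (KO) and wild-type (WT) origin that shared 4 plates. Members were all genes of the 4 deposited count tables whose symbol begins as a histone gene name (Hist1h to Hist4h, H2af, H3f3 or H1f, with the newer equivalents). They numbered 82 of 25832 genes, with 59, 61, 77 and 78 of them listed on plates 350W, 351W, 352W and 353W. By symbol, 64 were replication-dependent genes, 10 were variant genes and 8 stood apart as germ line genes, pseudogenes or an opposite-strand transcript. The members were chosen by symbol and the cells selected on total UMI count, and no histone level entered either choice.

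KO cells were compared with WT cells as the prefix of each cell name marks them, because the plate labels carry no genotype. The series design names the KO as a PHF19 knockout and its control as floxed. Whether the WT cells are these floxed controls, how the knockout was driven and the age of the mice remain unknown here. All wells held bone marrow cells depleted of lineage-positive cells and gated CD150+CD48-, processed by MARS-Seq, a plate-based method that counts unique molecular identifiers (UMIs) on polyadenylated RNA. Each plate held 96 KO and 96 WT wells, and of 768 wells the 716 with 500 or more UMIs were kept. No label ties a plate to an animal. With plate as a block, the p-values reflect only how the KO to WT difference varies between plates, which may be technical.

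Replication-dependent histone genes supply the bulk of nucleosome protein as DNA is copied, and their mRNAs normally end in a stem-loop in place of a poly(A) tail. Variant genes such as those of H2A.Z, macroH2A and H3.3 are expressed through the cell cycle, yield polyadenylated mRNA and mark particular chromatin regions. Phf19 associates with the Polycomb repressive complex that methylates lysine 27 of histone H3, so that the H3 proteins are the substrate of the complex. An oligo(dT)-primed library favours RNA with a poly(A) tail, and levels of both gene classes in such data are levels of the captured RNA.

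Promoters are shown for 3 replication-dependent H2A genes among the 10 H2A genes named Hist with most UMIs. Those of H2afv, the histone gene with the highest mean level, and of H3f3b, one of the pair of genes that encode H3.3, are also shown. Each is the 250 bases upstream of the RefSeq gene start in GRCm38.p6, with capitals for the CCAAT box (CCAAT, or ATTGG on the other strand) and the TATA box (TATAAA, or TTTATA on the other strand). They lie at chr13:23533625-23533874, plus strand (Hist1h2af, newer symbol H2ac10), chr11:58954435-58954684, plus strand (Hist3h2a, newer symbol H2aw), chr3:96220881-96221130, minus strand (Hist2h2ac, newer symbol H2ac20), chr11:6444444-6444693, minus strand (H2afv, newer symbol H2az2) and chr11:116024505-116024754, minus strand (H3f3b).
Hist1h2af: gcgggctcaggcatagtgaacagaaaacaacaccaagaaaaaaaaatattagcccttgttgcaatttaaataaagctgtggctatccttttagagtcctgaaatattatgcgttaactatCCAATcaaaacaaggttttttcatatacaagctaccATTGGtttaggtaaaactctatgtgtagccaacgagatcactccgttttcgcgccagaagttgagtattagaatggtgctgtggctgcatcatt
Hist3h2a: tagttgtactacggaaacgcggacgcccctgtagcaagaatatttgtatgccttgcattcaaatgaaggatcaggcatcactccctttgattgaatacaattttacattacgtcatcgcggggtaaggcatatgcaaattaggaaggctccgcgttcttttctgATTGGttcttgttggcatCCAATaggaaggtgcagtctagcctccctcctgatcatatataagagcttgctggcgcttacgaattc
Hist2h2ac: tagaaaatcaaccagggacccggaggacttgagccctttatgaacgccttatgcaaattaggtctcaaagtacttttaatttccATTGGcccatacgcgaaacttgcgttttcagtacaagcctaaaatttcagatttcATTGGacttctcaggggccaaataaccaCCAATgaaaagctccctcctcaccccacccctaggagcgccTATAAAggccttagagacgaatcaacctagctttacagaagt
H2afv: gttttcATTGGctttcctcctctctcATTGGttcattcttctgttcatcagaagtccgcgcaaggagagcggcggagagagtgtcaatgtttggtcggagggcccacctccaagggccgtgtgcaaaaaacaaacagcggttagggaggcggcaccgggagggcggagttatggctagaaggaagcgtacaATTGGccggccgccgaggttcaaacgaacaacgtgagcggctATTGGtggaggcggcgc
H3f3b: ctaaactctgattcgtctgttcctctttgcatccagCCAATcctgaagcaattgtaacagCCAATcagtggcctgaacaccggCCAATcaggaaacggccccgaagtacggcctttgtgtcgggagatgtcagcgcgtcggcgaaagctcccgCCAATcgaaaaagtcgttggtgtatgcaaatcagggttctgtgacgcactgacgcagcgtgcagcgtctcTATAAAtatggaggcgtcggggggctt
The Hist1h2af and Hist3h2a windows held 2 CCAAT boxes each, and that of Hist2h2ac held 3 with 1 TATAAA. Those of H2afv and H3f3b held 4 CCAAT boxes each, and that of H3f3b also held 1 TATAAA. A window was found for 69 of the 82 members. CCAAT was present in 45 of 56 replication-dependent promoters (80.4%), in 16 of 16 of the H2A promoters among them, in 5 of 9 variant promoters (55.6%) and in 33.8% of the 32851 promoters of the table. TATAAA was present in 27 of 56 replication-dependent promoters (48.2%), in 1 of 9 variant promoters (11.1%) and in 12.4% of all. These are matches of letters in a window.

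Kept cells held 2671945 UMIs, with 220821 to 510791 in each sum of one genotype on one plate. KO cells were shallower on every plate, with medians of 2230, 3120, 2552.5 and 4483.5 UMIs per KO cell against 3077, 3806, 2920 and 5006 per WT cell in plate order 350W to 353W. Low counts removed 49 KO and 3 WT wells. Phf19 itself had 0, 2, 1 and 0 UMIs in KO cells and 1, 0, 0 and 5 in WT cells, too few to check the genotype, and where the deleted part lies relative to the counted end is unknown here. All 11 HSC markers were detected, with a summed level of 941.7 to 1651 CPM (UMIs scaled to a total of 1e6) in KO and 867.3 to 1744 in WT cells. The 5 myeloid markers summed to 182.3 to 551.9 CPM in KO and 192.8 to 616.9 in WT cells. The lymphoid and B cell markers had sums of 303.9 to 5461 CPM in KO and 355.2 to 7797 in WT cells, the highest on plate 352W in both. The 7 erythroid markers summed to 40.8 to 167.4 CPM in KO and 54.5 to 152.2 in WT cells, and the 5 megakaryocyte markers to 63.4 to 135.3 CPM in KO and 40.9 to 192.4 in WT cells. KO cells filled wells 97 to 192 and WT cells wells 1 to 96 on every plate, so genotype and well position cannot be told apart. No cell name was shared between plates.

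Histone genes gave 17128 kept UMIs, 0.641% of all. The 10 variant genes supplied 9258, the 64 replication-dependent genes 7008 and the 8 genes apart 862. Each UMI counts 1 captured molecule at its end, so levels are not divided by gene length. Every member had at least 1 kept UMI, while 26 had 1 to 9, 31 had 10 to 99 and 25 had 100 or more.

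The histone types were captured very unequally within the replication-dependent class. Its 19 H2A genes gave 4936 UMIs and its 5 H1 genes 1317. The 15 H2B genes gave 319, the 13 H4 genes 317 and the 12 H3 genes 119, although a nucleosome holds equal numbers of the 4 core histones. H2A made up 77.2%, 79.7%, 89.0% and 85.8% of the core histone UMIs of this class in KO cells of plates 350W to 353W, against 80.8%, 74.6%, 92.3% and 84.1% in WT cells. The KO minus WT difference had a median of -0.71 percentage points and both signs, so the excess of H2A was present in both genotypes and on all 4 plates. What set the difference in capture between types was not tested.

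**Figure D1:**
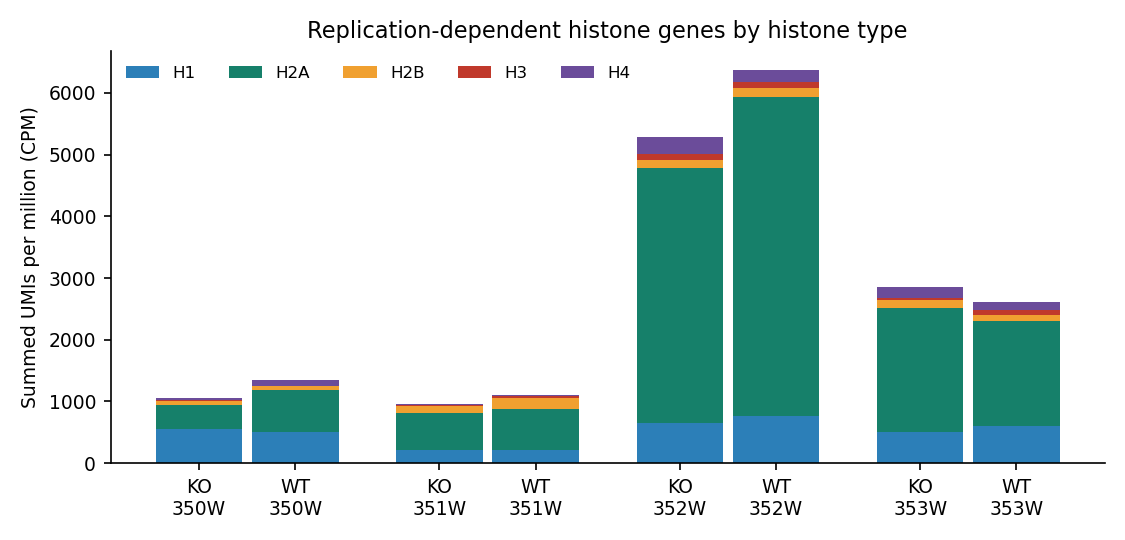
Summed CPM of the 64 replication-dependent histone genes for KO and WT cells of each plate, stacked by histone type. H2A is the largest segment in 7 of the 8 bars, H1 being the largest in KO cells of plate 350W, and both genotypes of plate 352W stand highest.

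The replication-dependent class differed far more between plates than between genotypes. For plates 350W, 351W, 352W and 353W its sum was 1060, 960, 5285 and 2851 CPM in KO cells, against 1347, 1106, 6365 and 2619 CPM in WT cells. KO cells were lower on 3 plates and higher on plate 353W. The log2 ratio of KO over WT was -0.35, -0.20, -0.27 and 0.12, with a median of -0.24, and means were 2539 ± 2026 CPM in KO and 2859 ± 2430 CPM in WT cells (SD, n = 4 plates each). The sum is a score over members and was not tested.

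Single wells weighed on the 2 plates of lowest level. On plate 350W a single WT well had 122 of 420 replication-dependent UMIs, and on plate 351W single wells held 105 of 300 in KO and 155 of 436 in WT cells. Without the highest well of each plate and genotype, a choice made after the data were seen, the log2 ratios were -0.01, -0.20, -0.31 and 0.14. The deficit in KO cells of plate 350W therefore rested on 1 WT well.

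The variant class was nearly level between genotypes. It summed to 1759, 2840, 3559 and 4986 CPM in KO cells, against 1741, 2948, 3787 and 4659 CPM in WT cells of plates 350W to 353W. The log2 ratios were 0.01, -0.05, -0.09 and 0.10, and the means were 3286 ± 1353 CPM in KO and 3284 ± 1243 CPM in WT cells (SD, n = 4). Plate 353W was highest for variant genes and plate 352W for replication-dependent genes, in both genotypes.

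**Figure D2:**
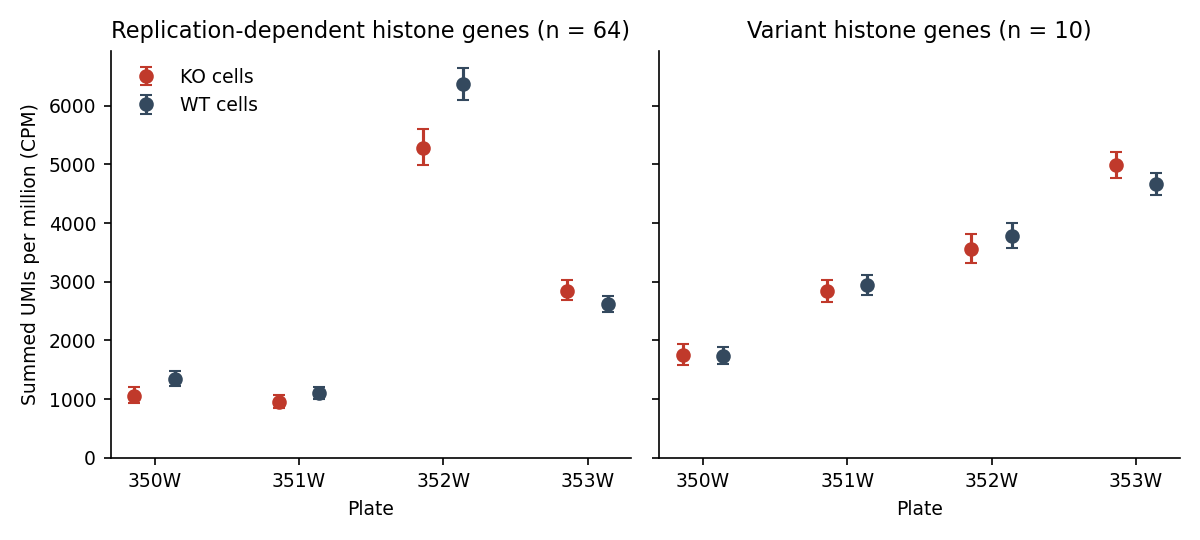
Summed CPM of the replication-dependent and variant histone genes on each plate, for KO cells (red) and WT cells (dark blue), with 95% Poisson intervals that cover counting error only. Plate 352W is highest for the replication-dependent genes (5285 CPM in KO and 6365 CPM in WT cells) and plate 353W for the variant genes (4986 CPM in KO and 4659 CPM in WT cells).

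Replication-dependent genes gave 36.3%, 24.6%, 55.7% and 34.7% of histone UMIs in KO cells of plates 350W to 353W, against 41.7%, 26.6%, 57.6% and 34.6% in WT cells. KO minus WT was -5.40, -2.05, -1.97 and 0.09 percentage points. The exact binomial intervals of KO and WT, which cover counting error only, overlapped on all 4 plates, and such overlap is not a test of the difference.

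Plate 352W also held the highest lymphoid marker sums, 5461 CPM in KO and 7797 CPM in WT cells. Without the 8 wells of over 100 immunoglobulin UMIs, 7 of them on this plate, its lymphoid sum was 4677 CPM in KO and 4561 CPM in WT cells, and its replication-dependent sum was 5502 CPM in KO and 6745 CPM in WT cells. The high replication-dependent level of plate 352W was thus as large without those wells, and the part of the remaining lymphoid marker RNA in it was not tested. The G2/M gene list summed to 311.2, 451, 1028 and 1454 CPM in KO cells and 186, 388.2, 897.1 and 1425 CPM in WT cells, highest on plate 353W. The order of plates by this list differed from their order by replication-dependent histones.

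No histone gene was called in KO against WT cells. Of the 82 members 24 passed the filter on low counts, 14 replication-dependent, 9 variant and Hist1h2aa, a germ line H2A gene. None passed an adjusted p of 0.05 in edgeR's quasi-likelihood test with plate as a block, where 6 of 6541 genes (0.0917%) did, 2 higher in KO (0.0306%) and 4 lower (0.0612%). At an unadjusted p under 0.05 there were also 0 members, beside 398 genes (6.08%), of which 196 were higher in KO (3%) and 202 lower (3.09%), and DESeq2 called 0 members. The median log2 fold change was -0.08 over the 24 members and -0.00 over all tested genes, with 10 members above 0 and 14 below. The 14 replication-dependent members had a median of -0.09 and the 9 variant members one of 0.04.

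The members nearest to the threshold were Hist3h2a and Hist1h1b. Hist3h2a, an H2A gene, had 63.2, 108.8, 620.4 and 311.3 CPM in KO cells and 131.5, 131.9, 853 and 287.8 CPM in WT cells of plates 350W to 353W, lower in KO on 3 of 4 plates. Its log2 fold change was -0.30 ± 0.15 (SE, edgeR adjusted p = 0.80). Hist1h1b, a linker histone H1 gene, had 13.5, 25.6, 181.1 and 36.6 CPM in KO cells and 3.21, 25.4, 283.3 and 74.4 CPM in WT cells, lower in KO on plates 352W and 353W. Its log2 fold change was -0.55 ± 0.30 (SE, edgeR adjusted p = 0.836).

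H1fx, a replication-independent linker histone gene, was the single tested member higher in KO on 4 of 4 plates, as 7.83% of all tested genes were. It had 27.1, 38.4, 58.9 and 81.1 CPM in KO cells and 12.8, 27.9, 56.7 and 52.9 CPM in WT cells, from 6 to 31 KO and 4 to 27 WT UMIs a plate. Its log2 fold change was 0.48 ± 0.32 (SE, edgeR adjusted p = 0.852). None of the 24 tested members was lower in KO on 4 of 4 plates, as 7.75% of all tested genes were. Among the members with too few UMIs to be tested, Hist1h2ac (79 UMIs) and Hist1h2ba (8 UMIs) were lower in KO on 4 of 4 plates. Hist1h2ac had 1 to 12 KO and 2 to 31 WT UMIs a plate, and Hist1h2ba 0 KO and 1 to 3 WT UMIs. The share of 7.75% holds for tested genes and none was computed over untested ones, so these 2 patterns are not read as results.

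**Figure D3:**
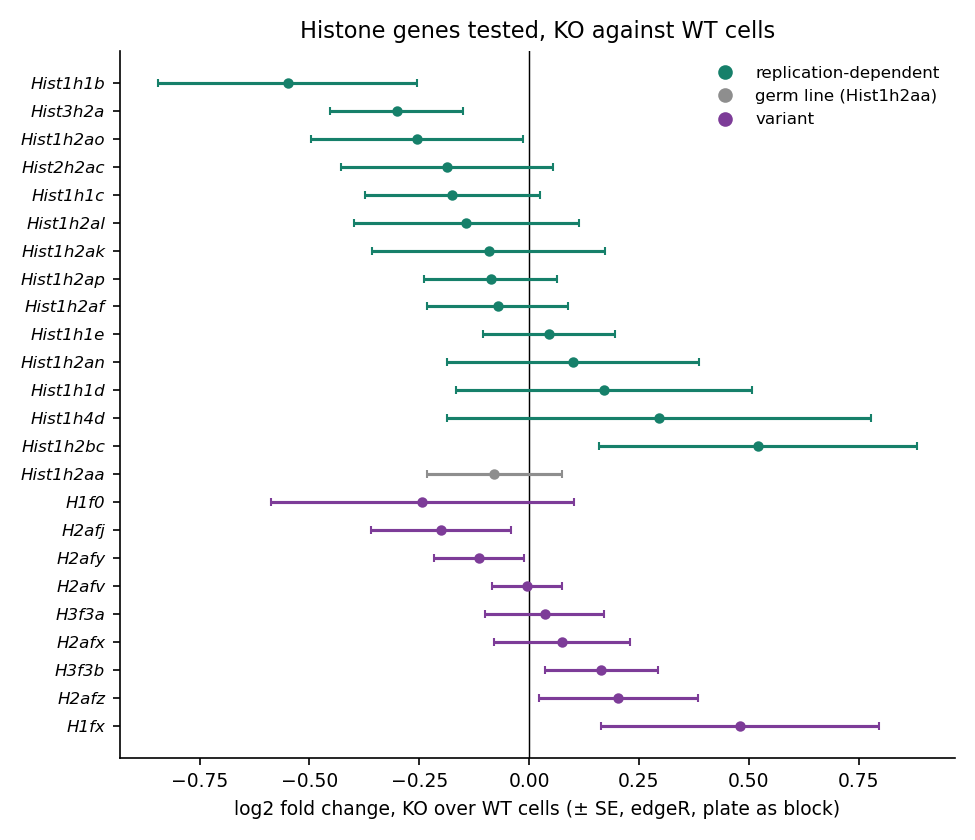
Log2 fold change of KO over WT cells for the 24 tested histone genes, with the SE of the edgeR fit with plate as a block, coloured by class. Values run from -0.55 for Hist1h1b to 0.52 for Hist1h2bc, and no gene passed the adjusted threshold.

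Among the H2A genes, Hist1h2ap had the most UMIs of the replication-dependent class, 1845 in 229 cells. It had 85.7, 185.5, 1621 and 871 CPM in KO cells of plates 350W to 353W, against 202, 187.8, 1914 and 650 CPM in WT cells. The groups overlapped, and plates 352W and 353W lay above the other plates in both. The log2 fold change was -0.09 ± 0.15 (SE, edgeR adjusted p = 0.961).

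The same leading plates recurred in other H2A genes. Hist1h2af, whose promoter is printed above, had 49.6, 80.0, 606.8 and 266.8 CPM in KO cells and 77.0, 96.4, 727.1 and 201.6 CPM in WT cells. Hist2h2ac, also printed above, had 40.6, 25.6, 176.6 and 107.2 CPM in KO cells and 35.3, 40.6, 261.3 and 88.1 CPM in WT cells. Hist1h2aa, known as a testis H2A gene, had 103.7, 96.0, 624.9 and 366.2 CPM in KO cells and 125, 93.9, 871.9 and 280 CPM in WT cells. All 3 were highest on plate 352W and second on plate 353W in both genotypes. The other tested H2A genes of this class had log2 fold changes of -0.25 ± 0.24 (Hist1h2ao), -0.19 ± 0.24 (Hist2h2ac), -0.14 ± 0.26 (Hist1h2al), -0.09 ± 0.27 (Hist1h2ak), -0.07 ± 0.16 (Hist1h2af) and 0.10 ± 0.29 (Hist1h2an), with edgeR adjusted p from 0.911 to 0.969, and Hist1h2aa had -0.08 ± 0.15 (SE). Replication-dependent H2A genes are known for near-identical coding sequences, but likeness between the copies, also near the counted end, was not computed here. Reads may be split or moved among copies, so the level of any single copy, Hist1h2aa included, is uncertain.

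The linker histone H1 genes, which bind the DNA between nucleosomes, did not share an order of plates. Hist1h1b and Hist1h1d were highest on plate 352W in both genotypes, as the H2A genes named above were. Hist1h1e was highest on plate 350W, with 446.5, 108.8, 285.3 and 88.9 CPM in KO cells and 378.3, 131.9, 261.3 and 95.9 CPM in WT cells. Hist1h1c was highest on plate 353W, with 40.6, 38.4, 86.0 and 313.9 CPM in KO cells and 64.1, 30.4, 97.6 and 354.4 CPM in WT cells. Hist1h1e had a UMI in 62.0% of KO and 67.4% of WT cells on plate 350W, and Hist1h1c in 73.8% of KO and 85.3% of WT cells on plate 353W. Hist1h1e led the H1 genes on plates 350W and 351W and Hist1h1c on plate 353W in both genotypes, while on plate 352W Hist1h1e led in KO and Hist1h1b in WT cells. Counting intervals of Hist1h1c on plate 353W (260.2 to 375.3 CPM in KO, 304.6 to 409.9 CPM in WT) lay above those of its other plates, where the highest upper bound was 138.5 CPM. Each plate is 1 library, so no test between plates was made.

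Neither gene differed between genotypes beyond its error. The log2 fold change was 0.05 ± 0.15 for Hist1h1e and -0.18 ± 0.20 for Hist1h1c (SE, edgeR adjusted p = 0.971 and 0.939). Hist1h1d, another H1 gene, had 0.17 ± 0.34, and Hist1h1a, the fifth H1 gene, had too few UMIs to be tested.

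Of the other core histones, 2 genes of the replication-dependent class were tested. Hist1h2bc, an H2B gene known to give polyadenylated mRNA as well, had 158 of the 319 H2B UMIs. It had 40.6, 105.6, 72.5 and 47.1 CPM in KO cells and 32.1, 144.6, 15.7 and 19.6 CPM in WT cells, with plate 351W highest in both genotypes. Its log2 fold change of 0.52 ± 0.36 was the highest of the 24 (SE, edgeR adjusted p = 0.868). It was 0.19 without plate 352W and 1.24 without plate 351W (edgeR adjusted p = 0.965 and 0.94). Hist1h4d, an H4 gene with 100 of the 317 H4 UMIs, had 0.30 ± 0.48. None of the 12 replication-dependent H3 genes, which encode H3.1 and H3.2, exceeded 19 UMIs, and none was tested.

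The variant genes held 4 of the 5 highest mean levels of all members. H2afv, 1 of the 2 H2A.Z genes, had 455.6, 1020, 1033 and 1575 CPM in KO cells and 493.8, 1038, 982.1 and 1560 CPM in WT cells of plates 350W to 353W. Its log2 fold change was -0.01 ± 0.08, the smallest error of the 24 members (edgeR adjusted p = 0.997). H2afz, the other H2A.Z gene, was lower, with 76.7, 89.6, 194.7 and 259 CPM in KO cells and 83.4, 86.3, 192 and 178.2 CPM in WT cells.

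H2afy, which encodes macroH2A1, varied most between plates among these. It had 135.3, 486.2, 552.5 and 1146 CPM in KO cells and 112.2, 535.4, 610.6 and 1304 CPM in WT cells, with a log2 fold change of -0.11 ± 0.10 (SE). Plate 353W was highest and plate 350W lowest in both genotypes, and KO was lower than WT on 3 of 4 plates.

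H3f3a and H3f3b, which encode the same H3.3 protein, varied less between plates than the H2A genes above. H3f3b had 581.8, 655.7, 461.9 and 701 CPM in KO cells and 413.6, 614, 626.4 and 512.9 CPM in WT cells, a mean of 600.1 ± 104.4 in KO and 541.7 ± 99.4 in WT cells (SD, n = 4). H3f3a had 261.6, 249.5, 335.1 and 449.9 CPM in KO cells and 330.2, 256.3, 229.8 and 450.3 CPM in WT cells. Their log2 fold changes were 0.16 ± 0.13 and 0.04 ± 0.14 (SE, edgeR adjusted p = 0.872 and 0.974), H3f3b first. The value of H3f3b was 0.05 without plate 353W and 0.35 without plate 352W (edgeR adjusted p = 0.984 and 0.395). The H3.3 genes together gave far more UMIs than all 12 replication-dependent H3 genes.

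H2afx and H2afj, the genes of H2A.X and H2A.J, followed the plates as the replication-dependent H2A genes did. H2afx, whose protein is phosphorylated at DNA breaks and whose mRNA occurs with a stem-loop or a poly(A) tail, had 85.7, 150.3, 502.7 and 421.1 CPM in KO cells and 128.3, 126.9, 585.5 and 299.5 CPM in WT cells. H2afj had 94.7, 96.0, 339.6 and 300.8 CPM in KO cells and 105.8, 149.7, 453.3 and 260.4 CPM in WT cells. Both were highest on plate 352W in both genotypes, unlike H2afv and H2afy, which were highest on plate 353W in both. H2afz was highest on plate 353W in KO cells but on plate 352W in WT cells. Log2 fold changes were 0.07 ± 0.16 for H2afx, -0.20 ± 0.16 for H2afj, 0.20 ± 0.18 for H2afz and -0.24 ± 0.35 for the linker gene H1f0 (SE). With H2afx moved to the replication-dependent class, the median log2 ratio of that class was -0.21.

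**Figure D4:**
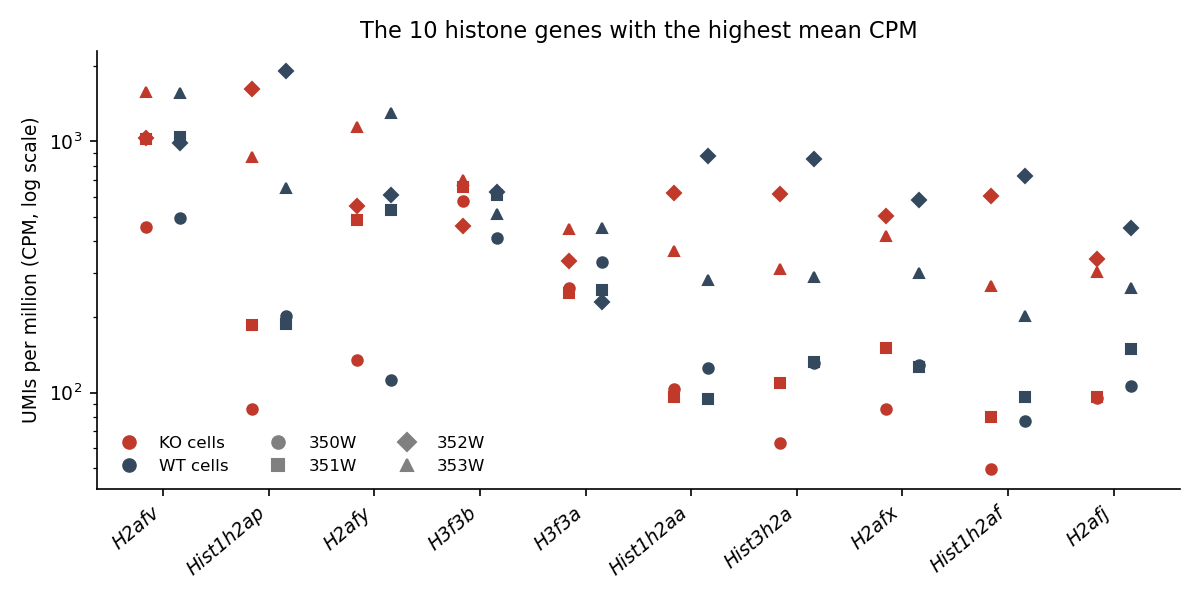
CPM, on a log scale, of the 10 histone genes with the highest mean, for KO cells (red, left) and WT cells (dark blue, right) of each plate (marker shape). Hist1h2ap spans 85.7 to 1621 CPM in KO cells and 187.8 to 1914 CPM in WT cells, while H3f3b lies between 413.6 and 701 CPM in all 8 sums.

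Replication-dependent H2A RNA was concentrated in few cells. It was found in 29.4%, 30.3%, 70.3% and 61.3% of KO cells and in 35.8%, 37.5%, 65.3% and 65.3% of WT cells of plates 350W to 353W. The 7 to 10 cells with most of it in each group held 59.5% to 83.7% of its UMIs in KO and 65.2% to 81.8% in WT cells. For variant genes, the same number of cells held 25.8% to 30.7% in KO and 24.4% to 36.3% in WT cells. The highest single cell had 20, 91, 91 and 70 H2A UMIs among KO cells and 100, 139, 131 and 99 among WT cells.

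Since KO cells were shallower, cells were also thinned to 1500 UMIs each, which left out 28 KO and 5 WT cells. Replication-dependent H2A was then found in 26.2%, 26.5%, 68.8% and 48.7% of KO cells and in 26.6%, 31.6%, 54.3% and 45.2% of WT cells. The exact binomial intervals of KO and WT overlapped on every plate, which is not a test of the difference. Variant UMIs were present in 85.7%, 98.8%, 96.9% and 98.7% of KO cells and in 94.7%, 100%, 95.7% and 98.9% of WT cells. No cell type lacking histone RNA was at hand, so no background share is given.

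Counts of the H2A genes went together from cell to cell. Over thinned cells of one plate (158 to 178 cells), the 10 H2A genes named Hist with 100 or more UMIs had median pairwise correlations (Pearson r of thinned counts) of 0.31, 0.34, 0.57 and 0.30 on plates 350W to 353W, over 45 pairs, and 0.31, 0.28, 0.59 and 0.31 on log(count + 1). H2afx and H2afj correlated with them at medians of 0.18, 0.15, 0.50 and 0.14. H2afv, H2afy, H2afz, H3f3a and H3f3b had medians of -0.00, 0.06, 0.08 and 0.03 with the same genes. These are descriptions: the points share a library, both genotypes and their thinned depth, and reads split between near-identical copies would also appear as joint counts.

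Co-detection, with the cells of all plates pooled, was graded in the same direction. Hist1h2ap had a UMI in 32.0% of the 716 kept cells, in 90.7% of the cells with Hist1h2ak, 78.3% of those with Hist1h2af, 70% of those with Hist1h2aa and 66.7% of those with Hist3h2a. It was present in 62.4% of cells with H2afx and 59.5% of cells with H2afj. Among cells with H2afz the share was 50.2%, and it was 34.2% to 37.5% among cells with H2afv, H3f3b, H3f3a or H2afy. The share for Hist3h2a was close to that for H2afx, so the replication-dependent genes and the variants were not clearly separated in these shares. Deeper cells have more of every gene, and these shares are not thinned. The shares also mix plates that differed in Hist1h2ap. By plate and genotype, it had a UMI in 13.04% to 21.05% of cells on plates 350W and 351W. On plates 352W and 353W the range was 45.0% to 54.05%. A gene found mostly on plates 352W and 353W would thus have a raised share from plate alone. The part of plate in the gradient was not tested.

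Hist1h1b correlated with the 10 H2A genes at medians of 0.21 on plate 352W and 0.26 on plate 353W, and at -0.02 and -0.01 on plates 350W and 351W, where it had 4 and 18 UMIs. Hist1h2bc correlated with them at medians of -0.03, -0.00, 0.08 and -0.04.

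Histone levels were next set beside cell cycle genes. With 2 or more UMIs against 0 over S phase and G2/M lists together, plates 351W and 353W left 1 to 4 cells without a UMI per genotype. On plate 352W, replication-dependent genes had 5111 CPM in the 42 KO cells with cycle UMIs and 1152 CPM in the 11 without, a ratio of 4.44. In WT cells of that plate they had 6959 CPM in 57 cells and 1000 CPM in 10 cells, a ratio of 6.96. On plate 350W the ratios were 1.13 in KO and 1.26 in WT cells. Variant genes had ratios of 1.06 in KO and 1.02 in WT cells of plate 352W.

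A split by the G2/M list alone, chosen after the data were seen, left 14 or more cells on each side. Replication-dependent H2A genes had 633.3, 606.1, 5083 and 1366 CPM in KO cells with a G2/M UMI and 343.8, 253.3, 1229 and 1857 CPM in KO cells without one. In WT cells they had 1303, 711.1, 6764 and 1277 CPM with a G2/M UMI and 490.7, 293.3, 637.7 and 484.8 CPM without one. The ratios were 1.84, 2.39, 4.14 and 0.735 in KO and 2.66, 2.42, 10.6 and 2.63 in WT cells. For the whole replication-dependent class they were 1.24, 1.15, 3.72 and 0.986 in KO and 1.4, 1.5, 5.36 and 1.95 in WT cells.

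Single cells decided part of these ratios. Without the highest cell of each side the H2A ratios were 1.30, 1.63, 5.84 and 0.995 in KO and 0.751, 1.41, 10.5 and 3.6 in WT cells. The excess in G2/M-positive cells was thus largest on plate 352W in both genotypes. On plate 350W it turned round in WT cells, where 1 cell had 33 of the 43 UMIs. Variant genes had ratios of 1.23, 1.25, 1.03 and 1.08 in KO and 1.27, 1.33, 1.37 and 1.29 in WT cells. Cells are not replicates, and no test was made. The S phase list alone, also chosen after the data were seen, gave ratios for replication-dependent genes of 1.01 on plate 350W, 2.72 on plate 352W and 1.22 on plate 353W in KO cells, against 1.22, 0.668, 2.53 and 1.27 on plates 350W to 353W in WT cells. On plate 351W only 3 KO and 6 WT cells lacked an S phase UMI, and those KO cells had no replication-dependent UMI. A single gene of the list, Fen1, had 895.6 CPM in KO and 946.4 CPM in WT cells of that plate. The whole list summed to 2044 and 2073 CPM there, and Fen1 had 25.45 to 64.13 CPM on the other plates. Splits that use the S phase list therefore depend much on 1 gene on plate 351W, and why it was high there was not tested. On plate 353W 81.6% of thinned KO cells and 76.3% of thinned WT cells had a G2/M UMI, against 23.8% of KO and 23.4% of WT cells on plate 350W.

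**Figure D5:**
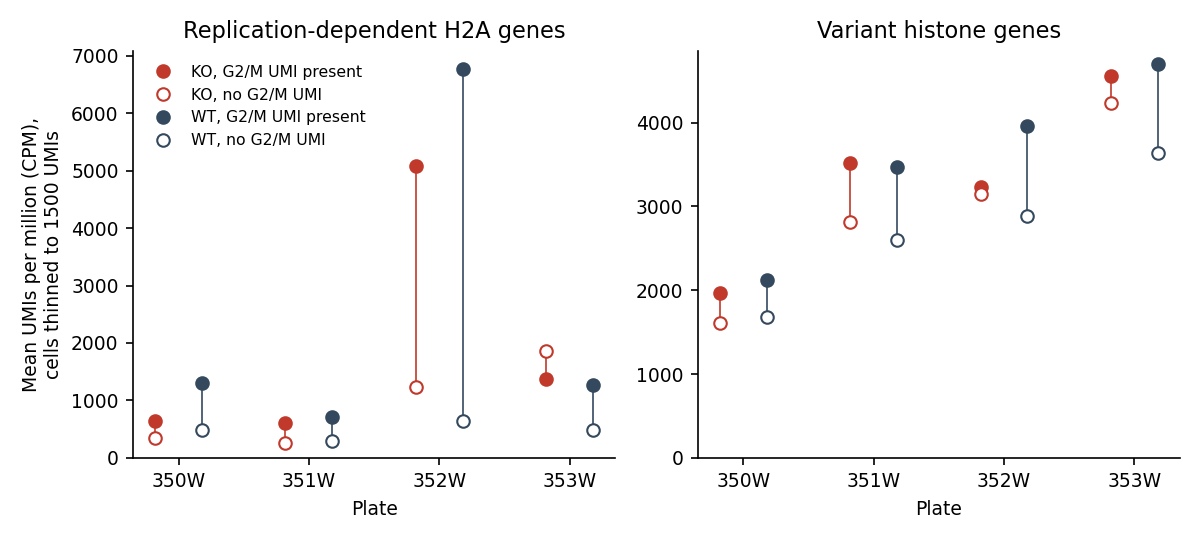
Mean CPM of replication-dependent H2A genes (left) and variant histone genes (right) in cells thinned to 1500 UMIs, with (filled) and without (open) a UMI of the G2/M list, for KO cells (red) and WT cells (dark blue) of each plate. The widest gaps are on plate 352W for H2A genes, with ratios of 4.14 in KO and 10.6 in WT cells, and KO cells of plate 353W run the other way at 0.735.

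No members had identical counts over all wells of the 4 plates. Within a single plate, identical counts occurred only among genes of 1 or 2 UMIs. On plate 350W these were Hist1h2ai with Hist1h3c, Hist1h2bk with Hist1h2bq and Hist1h2br, Hist1h3d with Hist1h4n, and Hist1h4j with Hist2h4. On plate 351W they were Hist1h2ad with Hist1h2ag, Hist1h2bj with Hist2h2be, Hist1h3a with Hist1h3d and Hist1h3h, and Hist1h4a with Hist1h4f, Hist1h4m and Hist2h2ab. The 9 and 11 members in these groups had at most 2 UMIs each on plate 350W and 1 on plate 351W. Plates 352W and 353W had none.

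Genes that serve the histones were also without a call. Of 25 histone chaperone genes 23 were tested, with a median log2 fold change of -0.00, and 1 of them, Rbbp7, was lower in KO on 4 of 4 plates (7.75% of all tested genes). Rbbp7, a chaperone subunit shared with the Polycomb complex, had -0.30 ± 0.14 (SE, edgeR adjusted p = 0.80), and Nap1l1, an H2A and H2B chaperone, had 0.29 ± 0.20. Of 16 genes of histone transcription and mRNA end processing 10 were tested, with a median of 0.34 and 4 of them higher and 0 lower in KO on 4 of 4 plates, where 7.83% of all tested genes were higher. Eri1, an exonuclease that trims histone mRNA ends, had 0.94 ± 0.36 (SE, edgeR adjusted p = 0.721), from only 6 to 22 KO and 2 to 18 WT UMIs a plate. Slbp, which binds the stem-loop of replication-dependent histone mRNA, had -0.17 ± 0.27.

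Of 24 S phase genes 16 were tested and 0 were called, with a median log2 fold change of -0.01. On 4 of 4 plates 2 of them, Mcm6 and Mcm7, were lower and 1 was higher in KO. Of all tested genes, 7.75% were lower and 7.83% higher on 4 of 4 plates. Pcna, the replication clamp, had -0.01 ± 0.17, and Mcm7, a subunit of the replicative helicase, had -0.54 ± 0.22 (SE, edgeR adjusted p = 0.728). Of 20 G2/M genes 9 were tested and 0 were called, with a median of 0.22. On 4 of 4 plates 1 was higher and 0 lower in KO, beside 7.83% and 7.75% of all tested genes. Top2a, the mitotic topoisomerase, had 0.27 ± 0.19, and Cdk1, the mitotic kinase, had 0.02 ± 0.28 (SE).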

How the data were processed

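The authors deposited, for each of 4 MARS-Seq plates, a table of whole-number counts of UMIs per gene and cell without normalization. The submitters' processing notes name GRCm38.p4 and FastQC, while aligner and counter are not given there. Cells were grouped as KO or WT by the prefix of their names in the file headers, and none was left without a plate. Of 25832 gene IDs, 25714 had a symbol. Cells under 500 UMIs were left out, and doublets were not called. The 8 sums over the cells of a genotype on a plate entered the quasi-likelihood test of edgeR 4.0.16 in R 4.3.3, with plate as a block, TMM scaling, the filterByExpr filter and Benjamini-Hochberg adjustment at 0.05; the SE is the size of the log2 fold change over the root of F. Same-plate KO and WT sums deviated together (r = 0.512, 0.632, 0.574 and 0.579), and the pairing comes from the shared plate. DESeq2 1.42.0 was an alternative. The fit was checked on simulated data.

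CPM is UMIs scaled to a total of 1e6 over the kept cells of a plate and genotype, and intervals (95%, exact Poisson or Clopper-Pearson) cover counting error only. Cells were thinned to 1500 UMIs (Python 3.11.15, numpy 2.4.6) where detection was compared. Named genes are the histone genes that passed the filter, the 10 of highest mean CPM, members with identical counts, and up to 5 genes by mean CPM of each list that serves histones; the G2/M and other lists come from textbook knowledge. Hist1h1a, Hist1h2ac, Hist1h2ba and Phf19 are named besides. Members, classes, lists and the block were chosen with earlier results of these data known. Alternatives were other scalings, filters and models, cells without a filter or with 1000 or more UMIs, no block, and each plate left out. The H3K27me3 region lists (build mm9) were not used, as no annotation of that build was at hand, and the bulk RNA-seq and accessibility samples were not analysed here. Promoters come from RefSeq, GRCm38.p6.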

Additional observations from a re-analysis of the deposited data

Results flagged for a closer look

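Of 52 sets of 4 plates, each a tested histone gene or class in one genotype, 3 had a plate that stood apart by Dixon's ratio of gap to range at the 95% level, and chance alone gives about 1 in 20. Hist1h1b had 181.1 CPM in KO cells of plate 352W, against 13.5, 25.6 and 36.6 CPM in KO cells of plates 350W, 351W and 353W. Hist1h2an, a replication-dependent H2A gene, had 141.6 CPM in WT cells of plate 352W, against 28.9, 25.4 and 39.1 CPM in WT cells of the other plates. Hist1h2bc had 144.6 CPM in WT cells of plate 351W, against 32.1, 15.7 and 19.6 CPM in WT cells of the other plates.

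The wells left out for low counts also held histone UMIs. They numbered 5, 7, 46 and 48 on plates 350W to 353W, which is 0.343%, 0.258%, 0.594% and 1.06% of the UMIs of left-out wells, against 0.310%, 0.405%, 1.04% and 0.784% in kept cells. Over the 52 left-out wells, 19 of these UMIs were replication-dependent and 87 variant, against 7008 and 9258 in kept cells.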

How the results depend on the processing

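No histone gene and no gene of the lists that serve histones was called under any of the 12 alternative fits, and the lowest adjusted p of a histone gene over them was 0.395, for H3f3b without plate 352W. The count of histone genes at an unadjusted p under 0.05 was 0 of 24 with the plate block (398 of 6541 genes), 2 of 82 without the gene filter (915 of 25820) and 1 of 24 without the cell filter (396 of 6593). It was 2 of 31 (409 of 7393), 2 of 26 (330 of 6522), 1 of 24 (502 of 7492) and 3 of 23 (315 of 6432) without plates 350W, 351W, 352W and 353W in turn. Over all genes the count of calls was 6 with plate as a block and 0 without the replicate block, 1 with DESeq2, 2 without immunoglobulin-rich wells, 3 when all wells entered, 26 when low genes entered, and 2 to 12 with each plate left out. Without the replicate block, the log2 ratio of the KO mean over the WT mean was -0.17 for the replication-dependent and 0.00 for the variant sum. This is 1 ratio of means over plates, not a median of ratios within plates. In that setting 0 histone genes were called. Without the highest well of each plate and genotype, chosen after the data were seen, the median of the replication-dependent sum was -0.105 in place of -0.237.

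All 80 alternatives of class sums, shares, counts of calls, identical counts and cell cycle ratios stayed within the spread between plates or on the same side of the threshold. That spread is the SD between plates and is a wide margin. For the replication-dependent sum it was 0.206, beside a median log2 ratio of -0.237, so staying within it does not show that the ratio is stable. Of 286 alternatives for single genes 20, in 13 genes, changed the sign of the log2 fold change, none of them called. H2afv, at -0.01, was 0.00371 with DESeq2, 0.0278 with no filter on cells, 0.00622 without the replicate block and 0.00698 with relative log expression scaling. With each plate left out, values ran from -0.55 to 0.19 for H1f0, -0.0206 to 0.0306 for H2afv, -0.15 to 0.23 for H2afx, -0.0014 to 0.28 for H2afz, -0.0927 to 0.15 for H3f3a, -0.0858 to 0.46 for Hist1h1d and -0.0510 to 0.13 for Hist1h1e. They ran from -0.32 to 0.17 for Hist1h2aa, -0.31 to 0.0512 for Hist1h2af, -0.24 to 0.0741 for Hist1h2ak, -0.34 to 0.0693 for Hist1h2ap, -0.29 to 0.91 for Hist1h4d and -0.43 to 0.0418 for Hist2h2ac. Hist1h2bc, which kept its sign, ran from 0.19 to 1.24, H3f3b from 0.05 to 0.35 and Hist3h2a from -0.51 to -0.20. These causes were not tested. Depth limits the 57 members with under 100 UMIs and the H3 genes most, and 4 plates with unequal well losses limit every comparison of KO with WT.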
